A study of Homo sapiens with 4 samples.

Results

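Described here are 10 genes that restrain MAP kinase signalling, measured in a human leukaemia line after knockdown of the long noncoding RNA ARIEL. They are 6 dual-specificity phosphatase genes (DUSP1, DUSP2, DUSP4, DUSP5, DUSP6 and DUSP10) and 4 genes of the Sprouty and SPRED families (SPRY1, SPRY2, SPRED1 and SPRED2). Each was taken by its name from the deposited expression table, where each name had 1 row, so that they are 10 of its 22361 rows. The rule used names alone, but the set was proposed with earlier results of these data known.

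ERK is the last kinase of the cascade that runs from RAS through RAF and MEK, and in T cells it is switched on by the T cell receptor and by cytokine receptors. Dual-specificity phosphatases of the MAP kinase class switch ERK, JNK or p38 off by removing phosphate from the threonine and the tyrosine of the kinase's activation loop. Sprouty and SPRED proteins act further upstream, at adaptors, RAS and RAF. Many of these genes are themselves transcribed in response to ERK, which closes a negative feedback loop, and their transcripts are therefore often read as a record of pathway output.

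The cells were Jurkat, an established line from a human T cell acute lymphoblastic leukaemia. A lentivirus delivered an shRNA against GFP, a gene the cells do not carry, in 2 control libraries, and an shRNA against ARIEL in 2 knockdown libraries. Both groups were infected with polybrene, selected in puromycin at 0.7 µg/ml for at least 36 hours and collected 72 hours after infection. All 4 libraries come from this single line. The labels do not say whether replicates were separate infections, so the p-values cover no more than the spread between these 4, which may be technical. The sources used here do not give the number and sequences of the shRNAs.

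The deposited values are rlog values, a log2 scale on which the authors' software pulls the differences of weakly expressed genes toward 0. The table holds no read counts, so the depth of each library is unknown. Of all rows, 14601 reached a linear mean of 10 and were tested, and their median rlog was 11.31 to 11.32 in each library. The row XLOC_005968, taken here from background knowledge as ARIEL since the table does not pair the names, read 12.02 and 11.91 in the controls and 10.58 and 10.55 after knockdown, 6.5-fold lower in the authors' deposited table. All 11 T cell line markers checked had a mean rlog of 12.24 or more. Of these 11 markers 5 were called lower after knockdown (CD5, CD3G, CD28, TAL1 and CD2, the first at -0.32) and 2 higher (CD7 and CD247). That is 45.5% lower and 18.2% higher, against 22.4% and 22.1% of all genes tested, by the test described below. Linear values summed over the T cell markers were 3.06e+05 and 3.1e+05 in the controls and 2.91e+05 and 2.96e+05 after knockdown. The 5 myeloid markers all had means under 5, with CSF1R listed at 0, as did the 5 epithelial markers, with EPCAM and CDH1 listed at 0. Of 5 B cell markers, 4 were under 5 and MS4A1 was listed at 0, while CD79A stood at 11.09. Values on the linear scale summed over the B cell markers were 1.94e+03 and 2.05e+03 in the controls and 2.41e+03 and 2.45e+03 after knockdown. The B cell shift was nearly all CD79A. The part of these marker shifts in the results below was not tested. In bulk libraries such as these, fewer cells expressing a gene and less RNA per cell cannot be told apart.

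After ARIEL knockdown 3 of the 10 genes were higher, 4 were lower and 3 did not pass the test, so the feedback genes did not move together. The genes that rose were all nuclear phosphatases, namely DUSP2, DUSP5 and DUSP1. The genes that fell were DUSP6, the cytoplasmic phosphatase of ERK, together with SPRED2, SPRED1 and SPRY2. DUSP4, DUSP10 and SPRY1 were not called. Calls are from limma's moderated test on the rlog values, two-sided, at a Benjamini-Hochberg adjusted p of 0.05 over all genes tested. With that rule 44.4% of all genes tested were called, 22.1% as higher and 22.4% as lower, so that a single call is a common event in these libraries. The median difference over the 10 genes was -0.06, against 0.00 over all genes tested. The authors' deposited table, which calls 39.4% of the genes it tested, has 3 of the 10 higher and 3 lower at the same threshold. The gene on which it differs is SPRY2.

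**Figure D1:**
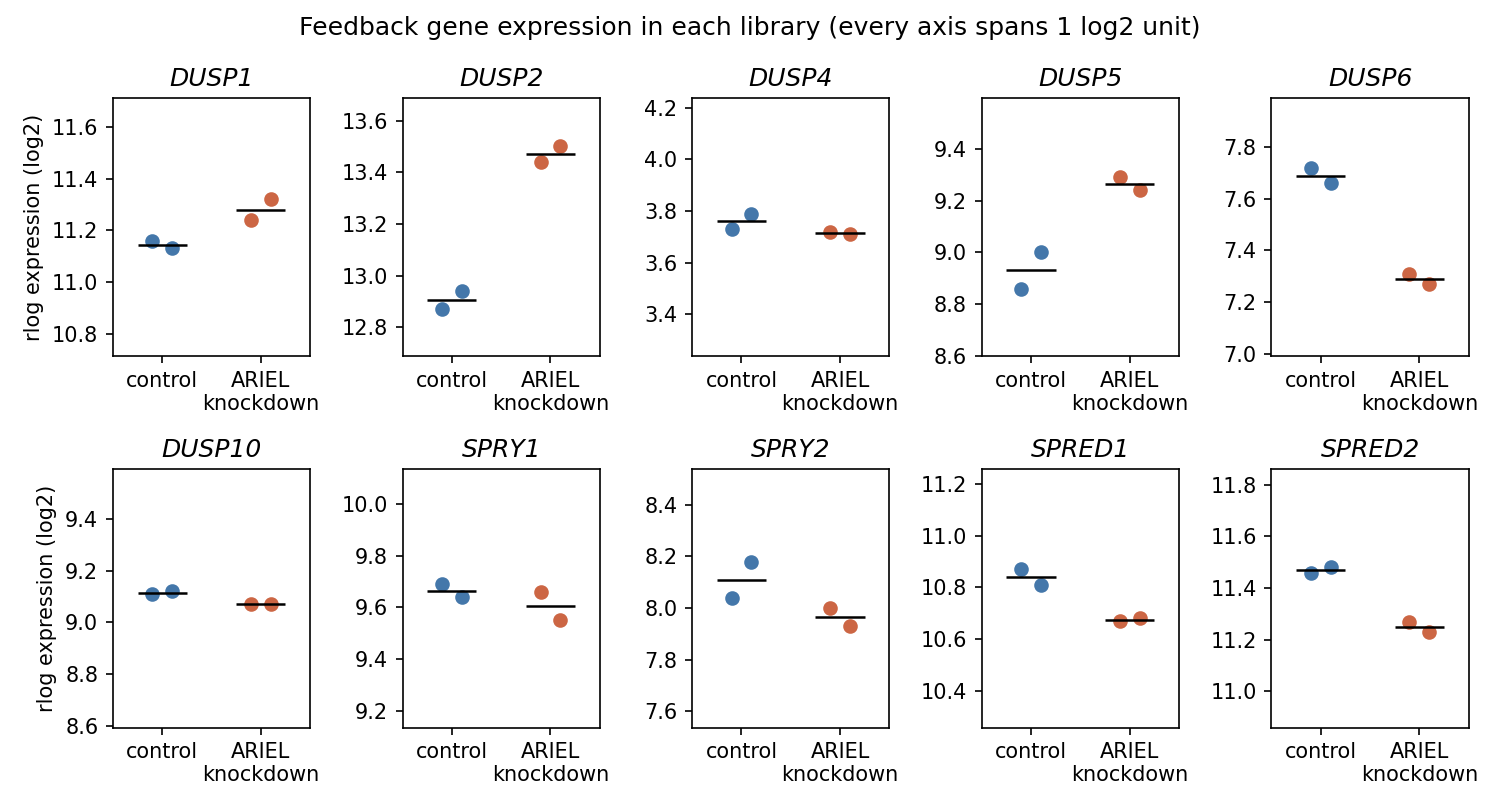
rlog value (log2 scale) of each of the 10 genes in the 2 control and the 2 ARIEL knockdown libraries, 1 point per library, with lines at the group means and every panel spanning 1 log2 unit. DUSP1, DUSP2 and DUSP5 have both knockdown points above both control points, and in SPRY1 alone the groups overlap.

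Both knockdown libraries lay outside the range of both control libraries for 9 of the 10 genes, 3 above it and 6 below it. The same held for 70.7% of all genes tested. The exact permutation test of 2 libraries against 2 cannot give a two-sided p below 0.333, so single-gene calls depend on the spread that limma shares across genes. With each gene's own variance alone, no gene of the table passed the adjusted threshold and 4561 had an unadjusted p under 0.05. Of the 10 feedback genes 6 were among them, including DUSP10, which the moderated test did not call. The called genes DUSP1 and SPRY2 were not among them. The adjusted p of the 7 called genes was then between 0.0915 and 0.35.

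**Figure D2:**
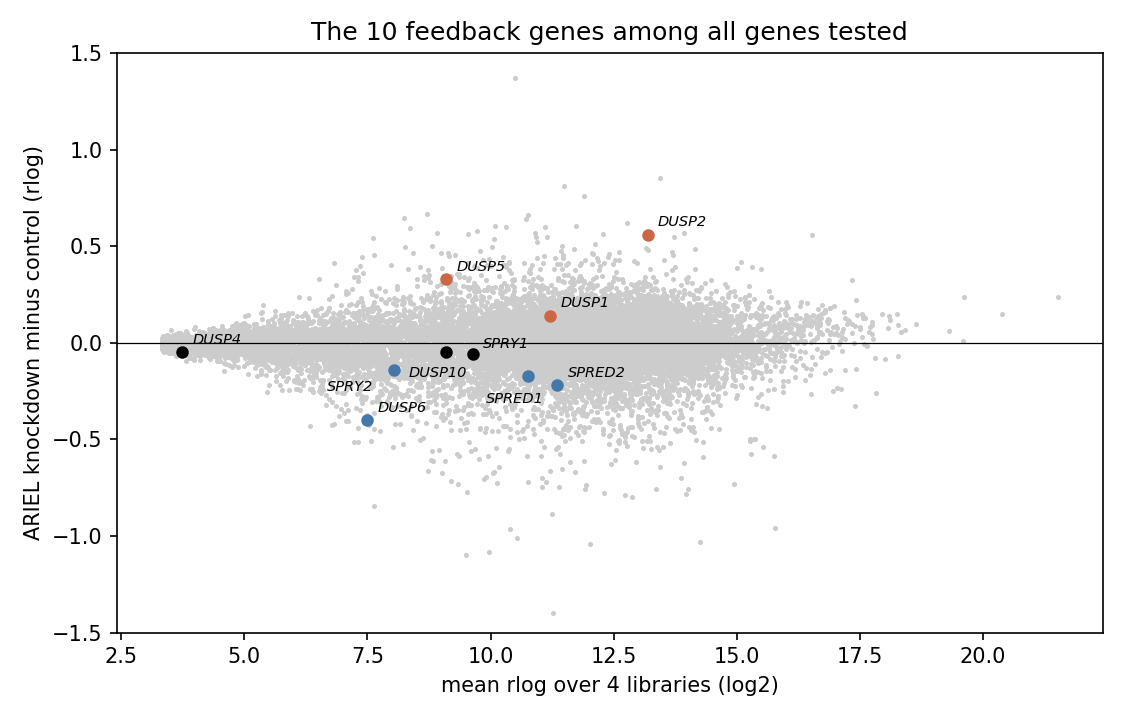
Difference between the means of the ARIEL knockdown and control libraries (rlog, vertical axis) against the mean rlog of the 4 libraries (horizontal axis) for all 14601 genes tested (grey), with the 10 feedback genes in colour where called (orange higher, blue lower) and in black where not. DUSP2 is at the upper edge of the cloud for its level and DUSP4 lies at the weakly expressed end, where rlog differences are compressed.

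DUSP2 had the largest difference among the 10 on the rlog scale, while in the authors' deposited table DUSP6 had the larger fold. DUSP2 encodes a nuclear phosphatase of activated lymphocytes that acts on ERK and other MAP kinases, and its gene is on chromosome 2 (ENSG00000158050). Its rlog was 12.87 and 12.94 in the controls and 13.44 and 13.50 after knockdown. Both knockdown values lay well above both control values, with a gap between groups many times the gap within them. The difference was 0.56 ± 0.03 (SE; adjusted p = 1.57e-61). It ranked 21 among 14601 genes by size of rise. The authors' deposited table gives a 2.02-fold rise, 1.02 ± 0.07 (SE) as a log2 fold change.

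DUSP5 encodes a nuclear phosphatase that is selective for ERK and holds it in the nucleus, and the gene is on chromosome 10 (ENSG00000138166). Control libraries read 8.86 and 9.00 on the rlog scale, and knockdown libraries read 9.29 and 9.24. The groups did not overlap, although the control libraries lay further from each other than the knockdown libraries did. DUSP5 rose by 0.33 ± 0.05 (SE; adjusted p = 1.05e-10) and ranked 149 by size of rise. Its deposited fold was 1.67 in the authors' deposited table.

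DUSP1, on chromosome 5 (ENSG00000120129), is the founding nuclear MAP kinase phosphatase, an immediate early gene that acts on p38 and JNK as well as ERK. The control rlog values were 11.16 and 11.13 and the knockdown values 11.24 and 11.32. The groups were separated by a narrow gap, only slightly wider than the distance between the knockdown libraries. The difference was 0.14 ± 0.04 (SE; adjusted p = 0.0026), and the authors' deposited table has a 1.2-fold rise. Without knockdown replicate 2 the difference was 0.10 and DUSP1 lost its call, in a fit with fewer calls over all genes tested as well.

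DUSP4, a nuclear phosphatase of ERK and JNK (ENSG00000120875), was near the floor of detection, at 3.73 and 3.79 in the controls and 3.72 and 3.71 after knockdown. Knockdown values were below control values by very little. The difference of -0.05 ± 0.02 (SE) did not pass the test (adjusted p = 0.0541), and it passed without control replicate 1 (0.013). At this level the rlog scale hides more than it does for the other genes. Over 1093 genes with a mean rlog from 3.32 to 5, a unit of the authors' log2 fold change corresponded to 0.182 on the rlog scale. Between 12 and 14, where DUSP2 lies, it corresponded to 0.551. The authors' deposited log2 fold change of DUSP4 was -0.29 ± 0.16 (SE), also uncalled in the authors' deposited table (adjusted p = 0.14). The authors' log2 fold changes may be pulled toward 0 as well. For the family genes DUSP13 and SPRY3, at a mean rlog of -1.72, they were 0.01 ± 0.04 (SE).

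The promoters of DUSP1 and DUSP2 are printed here because both are immediate early genes that rose, and each holds motif matches that the other lacks. The windows are the 250 bases before the RefSeq start site in GRCh38.p14, on the minus strand, at chr5:172771196-172771445 for DUSP1 and at chr2:96145441-96145690 for DUSP2. Capitals mark the cyclic AMP response element TGACGTCA and its shorter core TGACG, on either strand, in DUSP1, and the EGR factor motif GCGNGGGCG in DUSP2.
DUSP1: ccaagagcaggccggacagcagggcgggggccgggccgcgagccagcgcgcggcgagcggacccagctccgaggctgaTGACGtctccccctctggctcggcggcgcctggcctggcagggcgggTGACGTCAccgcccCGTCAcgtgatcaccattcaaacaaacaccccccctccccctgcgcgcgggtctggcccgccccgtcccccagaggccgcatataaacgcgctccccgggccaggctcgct
DUSP2: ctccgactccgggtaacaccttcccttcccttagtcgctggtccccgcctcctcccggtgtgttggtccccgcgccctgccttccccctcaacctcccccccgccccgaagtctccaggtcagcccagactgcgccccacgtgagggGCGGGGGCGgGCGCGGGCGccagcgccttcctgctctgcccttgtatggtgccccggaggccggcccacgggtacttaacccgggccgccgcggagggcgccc
The full element in DUSP1 contains 2 overlapping copies of its core, and is found in 1.65% of the 35116 promoter windows searched on both strands. The core alone is found in 21.2% of windows, and among the feedback genes also in SPRY2. The EGR motif has 2 separate matches in DUSP2 and is found in 8.41% of windows. These include a window of SPRY1 and a window of SPRY2. The window of SPRY2, a gene called lower, has 2 separate matches too. RefSeq windows were matched for 8 of the 10 genes, in 13 entries, with no entry for DUSP4 or DUSP5. No AP-1 motif TGANTCA (6.57% of all windows), GATA motif AGATAA (9.17%) or serum response element (1.16%) was found in the 13 windows. The ETS motif CCGGAAG (8.52%) was in SPRY1. The E-box CAGATG (12.2%) and the RUNX motif TGTGGT (11% of windows) were in SPRED2. The DUSP2 window also overlaps an exon of the noncoding gene AC012307.1. A match describes letters in a window and shows no binding.

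DUSP6 had the largest fall among the 10. It encodes the cytoplasmic phosphatase that is selective for ERK, and its transcript is widely used as a readout of ERK activity (chromosome 12, ENSG00000139318). Control libraries read 7.72 and 7.66 and knockdown libraries 7.31 and 7.27. Both knockdown values were far below both controls, and replicates lay close together. The difference was -0.40 ± 0.04 (SE; adjusted p = 9.54e-18), which ranked 222 by size of fall. The authors' deposited table has it 2.35-fold lower, a log2 fold change of -1.23 ± 0.19 (SE). In the GENCODE 29 annotation the exons of DUSP6 overlap those of AC024909.2, an antisense gene. The libraries were strand-specific, but the sources used here do not give the strand setting of the counting, so the share of reads from either strand cannot be told.

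DUSP6 also carries more than most genes of the words that earlier work on these same data found more often in the 3′ UTRs of genes that fell, GATGACA and AGATGAC. Because those words were picked from these libraries, their presence is a description and supports no direction. The sites in the DUSP6 3′ UTR of 2022 bases (GENCODE 29, chromosome 12) and the site in that of SPRY2 (782 bases, chromosome 13) are given 5′ to 3′ with the word in capitals.
DUSP6 bases 696 to 702: taccaattctGATGACAtctttacgga
DUSP6 bases 1366 to 1373: ccacgaataaAGATGACAtcctagaatg
DUSP6 bases 1537 to 1544: cagaataccaAGATGACAgccacatgtt
SPRY2 bases 312 to 318: gtaaattagcAGATGACttttttccat
Either word was found in 16.2% of the 12529 genes whose 3′ UTRs were searched, and 0.551% of them, 69 genes, had at least the 3 separate sites of DUSP6. SPRED1, SPRED2 and SPRY4, which fell too, have none. The words that the earlier work found more often in genes that rose, TGTTGTC and GTTGTCA, occur in 17.8% of genes. They are at 2 sites each in DUSP6, which fell, and SPRY1, which was not called, and TGTTGTC has 1 copy in DUSP4, not called either. Neither word is in DUSP1, DUSP2 or DUSP5, which rose. The part of any of these words in the differences was not tested.

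DUSP10, on chromosome 1 (ENSG00000143507), encodes a phosphatase that acts on JNK and p38 rather than ERK. Its values of 9.11 and 9.12 in the controls and 9.07 in both knockdown libraries lay close together. The groups did not overlap, but the difference of -0.05 ± 0.05 (SE) did not pass the test (adjusted p = 0.403), with a 95% interval from -0.15 to 0.04 on the rlog scale.

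Among the Sprouty genes, which encode inhibitors that bind adaptors and RAF, SPRY1 (chromosome 4, ENSG00000164056) read 9.69 and 9.64 in the controls and 9.66 and 9.55 after knockdown. The groups overlapped, since knockdown replicate 1 lay between the controls. The difference was -0.06 ± 0.05 (SE; adjusted p = 0.322; 95% interval -0.15 to 0.03). SPRY2 (chromosome 13, ENSG00000136158) read 8.04 and 8.18 in the controls and 8.00 and 7.93 after knockdown. Its groups were separated by less than the distance between the control libraries. SPRY2 was lower by limma, at -0.14 ± 0.05 (SE; adjusted p = 0.00621), but not in the authors' deposited table, where the log2 fold change was -0.38 ± 0.18 (SE; adjusted p = 0.0739). Without control replicate 2 the difference was -0.07 (adjusted p = 0.293), and without knockdown replicate 2 the adjusted p was 0.138.

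Both SPRED genes, whose products hold RAS inactive at the membrane together with neurofibromin, fell by a small amount in both knockdown libraries. SPRED2 (chromosome 2, ENSG00000198369) read 11.46 and 11.48 in the controls and 11.27 and 11.23 after knockdown. The groups were well apart. The difference was -0.22 ± 0.04 (SE; adjusted p = 4.56e-07), 1.33-fold lower in the authors' deposited table. SPRED1 (chromosome 15, ENSG00000166068) read 10.87 and 10.81 in the controls and 10.67 and 10.68 after knockdown, again without overlap. Its difference was -0.17 ± 0.04 (SE; adjusted p = 0.000453), 1.26-fold lower in the authors' deposited table. Differences in these libraries varied with base composition, from a median of -0.08 in the tenth of genes with the lowest GC content to 0.08 in the tenth with the highest. SPRED1, at 38.9% GC, had a difference of -0.10 (adjusted p = 0.0155) once a GC and length trend was removed, and DUSP2, at 63.9% GC, had 0.49 (adjusted p = 2.44e-22). All 7 called genes were still called after that step.

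On a scale per kilobase of transcript, rlog minus the log2 of transcript length in GENCODE 29, DUSP2 stood far above the other feedback genes, with a mean level of 12.43. DUSP1 followed at 10.20, SPRED2 at 9.33 and SPRY1 at 8.25. The level of SPRED1 was 7.80, that of DUSP5 7.74 and that of DUSP10 7.67. SPRY2 at 6.60, DUSP6 at 5.35 and DUSP4 at 1.27 were lowest. The range of DUSP5 across the libraries overlapped those of SPRED1 and DUSP10, its neighbours in this order, while the ranges of all other neighbours were apart. Within that trio the order differed between groups, since DUSP5 was the lowest of them in the controls and the highest in the knockdown libraries, at 7.94 and 7.88. On the linear per-kilobase scale DUSP2 made up 60.4% and 61.5% of the summed level of the 10 genes in the controls and 69.3% and 70.1% after knockdown. The rlog scale compresses differences between groups by an amount that varies with level, so the size of this shift is not exact.

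**Figure D3:**
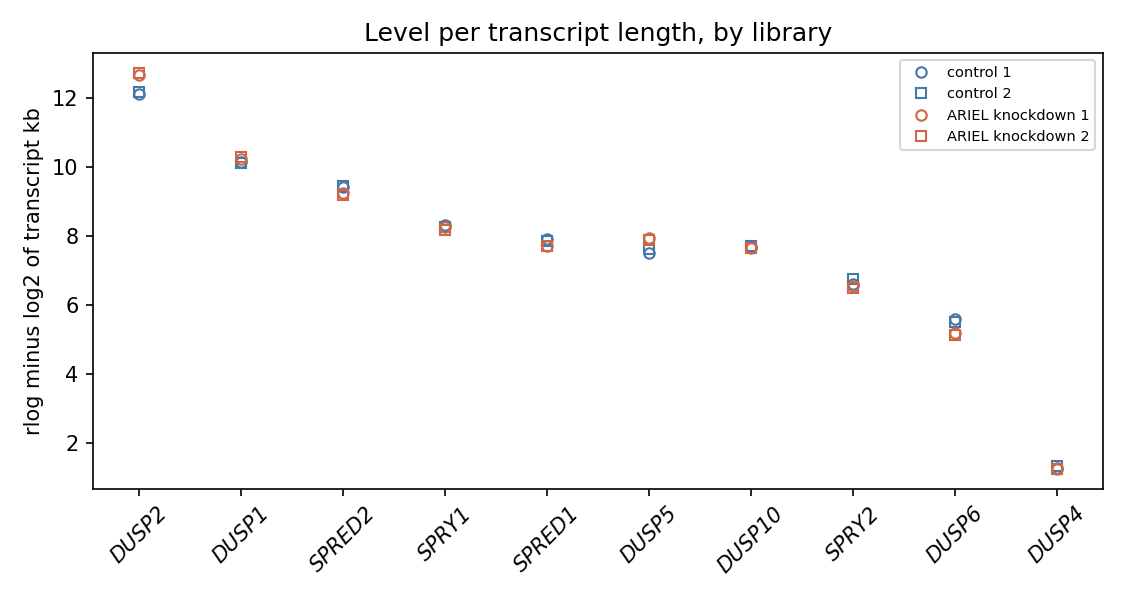
Level per kilobase of transcript (rlog minus log2 of transcript length in kilobases) of the 10 genes in each library, 1 point per library, in order of the mean. DUSP2 stands highest at 12.12 to 12.74 and DUSP4 lowest, and DUSP5 moves past SPRED1 and DUSP10 in the knockdown libraries.

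The families reach beyond these 10 genes. Of 21 further rows for DUSP, Sprouty and SPRED genes, 15 could be tested, and 1 was higher (6.67%) and 3 were lower (20%) after knockdown, a smaller share than the 44.4% called over all genes. DUSP14, a small atypical phosphatase that dampens T cell receptor signalling, rose from 11.05 and 11.04 to 11.30 and 11.31 (0.26 ± 0.04 SE; adjusted p = 2.77e-09). SPRY4, a Sprouty gene that is a standard ERK target, fell from 8.05 and 8.10 to 7.79 in both knockdown libraries (-0.28 ± 0.05 SE; adjusted p = 1.17e-08), 1.74-fold in the authors' deposited table. For both genes the 2 groups were well apart. DUSP16, a phosphatase of JNK, was lower by a smaller amount at -0.14 ± 0.05 (SE; adjusted p = 0.00753), a call lost without control replicate 1 (0.0713) and without knockdown replicate 1 (0.0878). DUSP27, a phosphatase-like gene outside the lists used here, was lower at -0.16 ± 0.04 (SE; adjusted p = 0.000612), with the call lost without control replicate 2 (0.0643). Of the 4 typical MAP kinase phosphatases outside the 10 that could be tested, DUSP16 was the 1 called. With the GC and length trend removed 3 were called, where 3408 of the 12719 genes in that fit were higher and 3139 lower. Those gained were DUSP8 at -0.07 and DUSP9 at -0.08, both weakly expressed, with mean rlog values of 3.55 and 3.77. Of 10 tested genes on the list of atypical phosphatases, DUSP14 was higher and STYX, a catalytically inactive relative, was lower. STYX stood at -0.09 (adjusted p = 0.0496), a call lost when any 1 library was left out. It was not called in the authors' deposited table (adjusted p = 0.0681). With the GC and length trend removed STYX, at 35.9% GC, was at -0.01 (adjusted p = 0.903). DUSP14 had no GC value and was not in that fit. With no trend removed, DUSP3, DUSP7, DUSP8, DUSP9, DUSP11, DUSP12, DUSP15, DUSP18, DUSP22, DUSP28 and SPRED3 did not pass the test. DUSP13, DUSP19, DUSP21, DUSP23, DUSP26 and SPRY3 were too low to be tested.

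**Figure D4:**
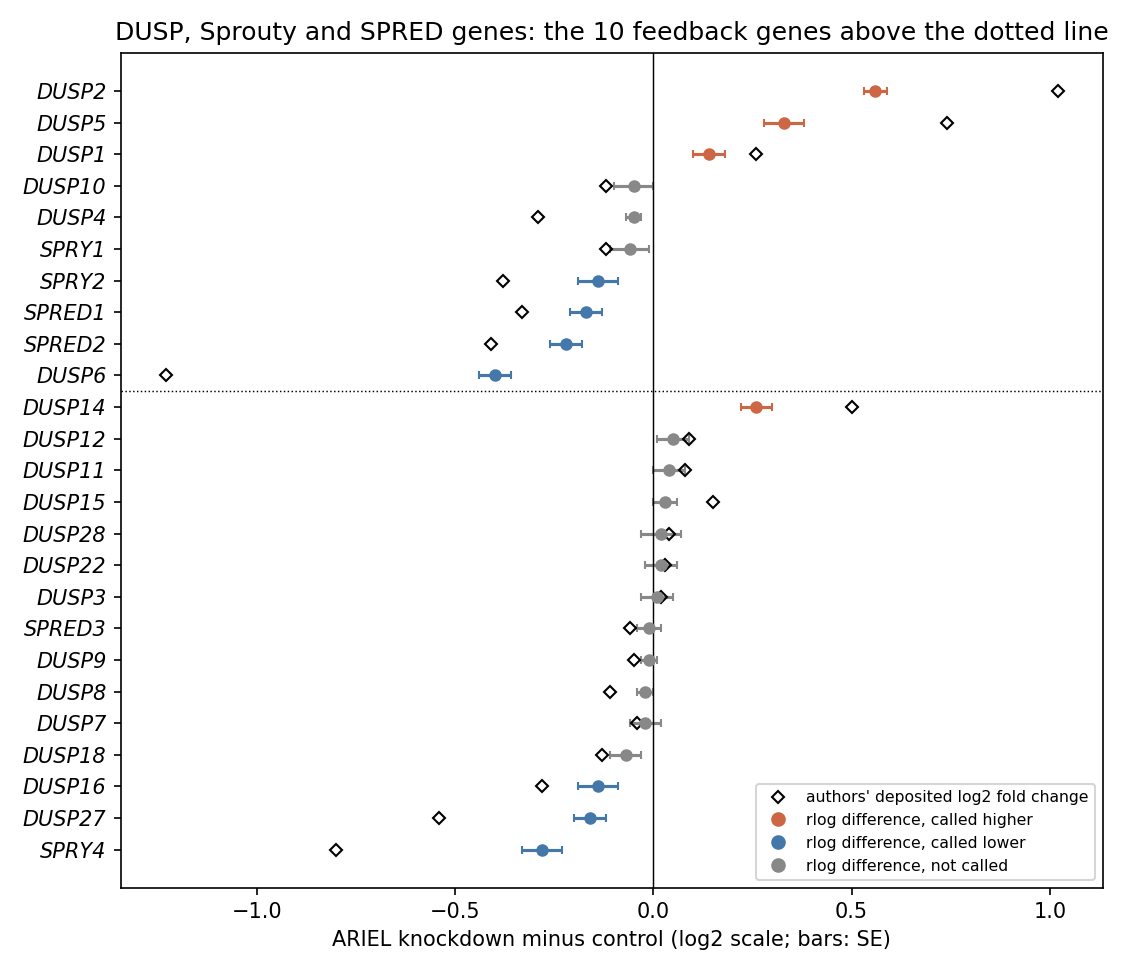
Difference between the means of the ARIEL knockdown and control libraries (rlog) for every DUSP, Sprouty and SPRED gene tested, with bars of 1 standard error from limma and the authors' deposited log2 fold change as open diamonds. DUSP2, DUSP5, DUSP14 and DUSP1 are called higher, and DUSP6, SPRY4, SPRED2, SPRED1, DUSP27, SPRY2 and DUSP16 lower.

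The rest of the pathway was read from lists of its other genes, 108 in all, of which 96 could be tested and 50 were called, 30 higher (31.2%) and 20 lower (20.8%), against 22.1% and 22.4% of all genes tested. Among ERK-responsive transcripts 12 of 19 tested genes were higher (63.2%) and 2 lower (10.5%), with a median difference of 0.15, where all genes tested had 22.1% higher, 22.4% lower and a median of 0.00. The 12 were immediate early genes and other growth response genes, namely JUN, FOSB, JUNB, FOS, EGR1, EGR2, EGR3, FOSL2, IER2, IER5, MYC and SRF. JUN, FOSB and JUNB encode subunits of the AP-1 transcription factor and were higher by 0.60, 0.59 and 0.41. The 2 that fell were SPRY4 and ETV5, a PEA3-class ETS factor. ETV5 fell from 10.04 in both control libraries to 8.94 and 8.95 in the knockdown libraries (-1.10 ± 0.05 SE; adjusted p = 6.32e-111), 5.46-fold in the authors' deposited table. Like the 10 feedback genes, the list had members called in both directions.

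Upstream of ERK, 6 of 13 tested RAS activators and adaptors fell (46.2%, against 22.4% of all genes tested) and 1 rose (7.69%, against 22.1%), with a median difference of -0.10. Those named by size of test were PTPN11, the phosphatase that couples receptors to RAS, at -0.15, the adaptor GAB3 at -0.22, and the exchange factors RASGRP2 at -0.15 and SOS2 at -0.12. Fewer of the 13 were called with any 1 library left out, as over all genes tested. SOS2 lost its call without knockdown replicate 2, at -0.07. SOS2 also lost its call without control replicate 1 (-0.10), and RASGRP2 without control replicate 2 (-0.10). The RAS GTPase inhibitors were split, with 5 of 9 higher and 4 lower and a median of 0.10. All 9 were thus called, where 44.4% of all genes tested were. With the GC and length trend removed 8 were called. Fewer of the 9 were called with any 1 library left out, as over all genes tested. RASAL1 at 0.29 and DAB2IP at 0.20 were higher, while RASA2 at -0.30 and RASA3 at -0.19 were lower.

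Of 16 tested kinases and scaffolds of the RAS to ERK cascade 5 were higher (31.2%) and 1 was lower (6.25%), with a median of 0.03, and the share called was below the 44.4% of all genes tested. ARAF, a RAF kinase, rose from 11.19 and 11.22 to 11.70 and 11.71 (0.50 ± 0.04 SE; adjusted p = 9.83e-35), 1.93-fold in the authors' deposited table. Both knockdown libraries were far above both controls. The kinases MAP2K1 and MAP2K2 were each higher by 0.13, and the scaffold SHOC2 was lower at -0.14. MAP2K2, at 65.5% GC, lost its call with the GC and length trend removed (0.05, adjusted p = 0.0739). This list had fewer calls without control replicate 1, without control replicate 2 and without knockdown replicate 2, as did all genes tested. SHOC2 lost its call without control replicate 1 (-0.09) and without knockdown replicate 2 (-0.10). MAP2K1 lost its call without knockdown replicate 2 (0.10).

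Of 10 tested JNK and p38 kinases 1 was higher (10%) and 2 were lower (20%), with a median of -0.01, again below the 44.4% called over all genes. MAP2K3 was higher at 0.13, and the p38 genes MAPK14 and MAPK11 were lower at -0.15 and -0.13. MAP2K3 lost its call without control replicate 1 (0.09, adjusted p = 0.159) and without knockdown replicate 1 (adjusted p = 0.133). MAPK11 lost it without control replicate 2 (-0.07, adjusted p = 0.247) and without knockdown replicate 2 (adjusted p = 0.0629). Among 14 ERK substrates and effectors 5 were higher (35.7%) and 3 lower (21.4%), with a median of 0.05. MKNK2, a kinase that phosphorylates the cap-binding factor eIF4E, rose by 0.42, ETS2 by 0.27 and the ribosomal S6 kinase gene RPS6KA1 by 0.16. ETS1, a T lineage transcription factor, was lower at -0.15.

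**Figure D5:**
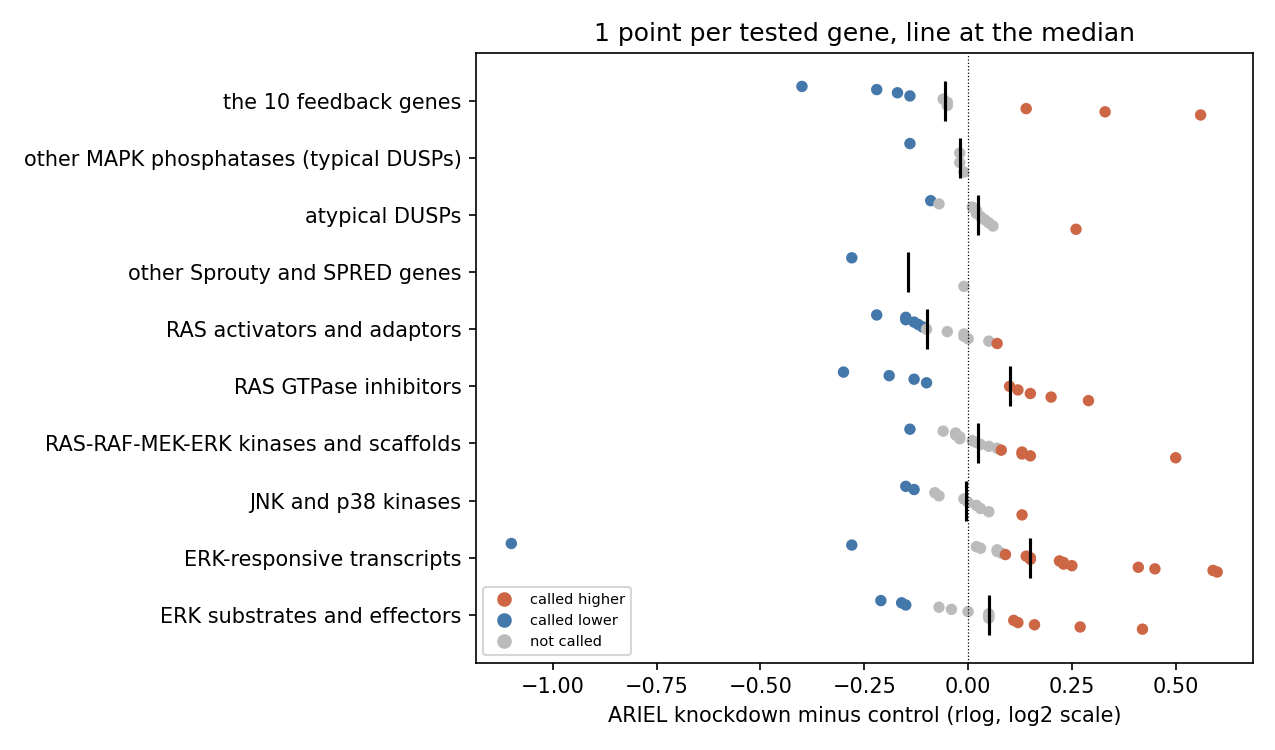
Difference between the means of the ARIEL knockdown and control libraries (rlog) for each tested gene of the 10 feedback genes and of the 9 pathway lists, 1 point per gene, with the median of each list as a black line. The ERK-responsive list has its median at 0.15, with ETV5 at the far left.

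A further 3′ UTR feature varied in density among the 10 genes. AU-rich pentamers ATTTA, which are typical of short-lived immediate early transcripts, numbered 4 in the 3′ UTR of DUSP1 (5.95 per kilobase, more than in 94.8% of the genes searched). DUSP2 had 3 (4.57 per kilobase, more than in 89.6%). DUSP5, which rose as well, had none. SPRED1, which fell, had 24 in a long 3′ UTR (4.3 per kilobase, more than in 87.7%). Per kilobase, SPRY1 had 3.31, DUSP10 3.04, SPRY2 2.56, SPRED2 1.89, DUSP4 1.51 and DUSP6 0.495. The median over the genes searched was 1.58 per kilobase, and at least 1 copy was found in 71.5% of genes.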

How the data were processed

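RNA-seq libraries were strand-specific, with paired reads of 100 bases. The deposited table gives rlog values on the log2 scale per library, made by the authors, per the file headers, and beside them the authors' log2 fold change with its standard error. It also holds the authors' p-value and adjusted p-value, and a test score deposited by the authors that equals the fold change over its error to within 5.98e-07. Tools listed without roles in the submitters' processing notes are DESeq2 1.12.4, HTSeq 0.6.1 and STAR 2.5.2a, with the build hg19. ERCC spike-ins were added per cell count, per the labels' protocols, and the sources used here do not say whether they set the scaling, so all differences are relative levels.

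The rlog values were compared with limma 3.58.1 in R 4.3.3 (empirical Bayes with a trend of spread on level, no pseudocount), over the 14601 rows with a linear mean of at least 10. The test was two-sided and adjusted by Benjamini-Hochberg over all of them. The fit estimated infinite prior degrees of freedom, and each gene's spread was that shared across genes of similar level (median SE 0.0364). The procedure was tested on simulated data. Named were the 10 genes, all tested family genes, the knocked-down RNA, and from each pathway list at most 4 called genes with the smallest adjusted p. FOS, EGR1, EGR2, EGR3, FOSL2, IER2, IER5, MYC, SRF and marker genes were named outside this rule, with their values already seen. The 10 genes and all lists were chosen with earlier results of these data known, so counts over them are descriptions. Other filters, normalizations, ways of sharing the spread, a replicate block and each library left out were tried. Transcript lengths and GC content were from GENCODE 29, 3′ UTRs from its longest entries, and promoters from RefSeq GRCh38.p14. These builds differ from the hg19 of the table and were joined by gene only.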

Additional observations from a re-analysis of the deposited data

How the results depend on the processing

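All 7 called feedback genes kept their direction in every alternative tried. With each gene's own variance the counts fell to 0 higher, 0 lower and 0 pathway genes. An unadjusted p under 0.05 was then found for 28 of 96 pathway genes and for 4561 of all 14601 genes tested. All libraries together gave 3 genes higher, 4 lower and 50 pathway genes called. Leaving out 1 library at a time gave fewer pathway genes called, and fewer calls over all genes tested as well. Each such fit leaves 1 library in a group. The remaining alternatives gave 3 higher, 3 to 5 lower and 47 to 54 pathway genes. With the replicate number as a replicate block there were 3 higher, 5 lower and 54 pathway genes, DUSP4 being the gene gained (adjusted p = 0.0409). Over all genes tested the block gave 3722 higher and 3704 lower, against 3224 and 3264 without it. The replicate deviations of the groups correlated at 0.198 across genes, and 2 numbers do not establish a pairing. Uncalled family genes changed sign near 0. DUSP15 was -0.02 with the GC and length trend removed, with or without the block. With 1 library left out, DUSP22 ran from -0.00 to 0.04, DUSP28 from -0.01 to 0.05, DUSP7 from -0.07 to 0.02 (0.01 without knockdown replicate 1) and DUSP9 from -0.02 to 0.00. The cause was not tested. Since the table holds no counts, depth sets no stated limit here, and the smallest detectable difference was not computed for any gene. DUSP4 had the lowest level of the feedback genes, a mean rlog of 3.74, where rlog differences are compressed. The SE of DUSP4 was 0.02 on the rlog scale and 0.16 for the authors' log2 fold change.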
